A study of Mus musculus with 8 samples.

Results

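The contacts described here join the sequence just upstream of a 245 kb inversion in the X-inactivation center (Xic) of the mouse to the interval that the inversion turns around. They were measured by carbon-copy chromosome conformation capture (5C), in which fragments of crosslinked chromatin that lie close together in the nucleus are ligated and the ligation products are counted with pairs of forward (FOR) and reverse (REV) primers, each assigned to a HindIII restriction fragment. Members were chosen by position alone, as the primer pairs that join a fragment with its midpoint at chrX:100303826-100378305 (mm9), called the upstream flank below, to a fragment with its midpoint at chrX:100378306-100623270, called the interval. There were 326 such pairs among 269808 pairs on the X chromosome. The flank held 10 fragments over 74480 bp (4 FOR and 6 REV), and the interval held 65 fragments over 244965 bp (33 FOR and 32 REV).

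All 8 libraries came from undifferentiated (day 0) E14 cells, a male mouse embryonic stem cell line of the strain 129/Ola with a single X chromosome, and each allele was represented by 2 libraries. In 245kb-INV the interval is inverted between the upstream flank and the Xite and Tsix loci. In Linx-51kb-INV only 51 kb within Linx are inverted, and the flank and the rest of the interval keep their order. Chic1-4kbD and Chic1-14kbD lack 4 kb and 14 kb of Chic1, both with CTCF sites, and otherwise keep the reference order, so they served as the alleles against which the inversions were compared. The libraries are independent clones, except that those of Chic1-14kbD are 2 replicates of 1 clone. No wild-type library was analysed here, so each contrast is with alleles that are edited inside the interval themselves. The names of the 245kb-INV libraries carry prefixes that no other allele shares and whose meaning the labels do not give. If they mark a batch, batch and allele cannot be told apart for the inversion.

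The Xic controls X-chromosome inactivation and is folded into neighboring topologically associating domains (TADs), which are stretches of chromatin that contact themselves more than their surroundings. Contacts within a TAD fall with distance along the chromosome and are raised where loops form between sites bound by CTCF, a zinc-finger protein that halts loop extrusion by cohesin, most often between sites whose motifs point toward each other. Turning an interval around changes its distance to everything outside it and the orientation of the CTCF motifs in it, and leaves both unchanged for pairs inside it.

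The interval begins with 4930519F16Rik, the annotated gene model over the noncoding Linx locus (chrX:100378310-100507121), and Nap1l2, a nucleosome assembly protein gene (chrX:100379515-100381979). It continues with Cdx4, a caudal-type homeobox gene (chrX:100516737-100525931), Chic1 (chrX:100551815-100591431), and Tsx, a testis-expressed gene (chrX:100609806-100619919). Tsix, the antisense repressor of Xist, and Xist itself, the RNA that coats the inactive X chromosome, lie to the right of the interval. In the flank the annotation holds only a pseudogene, Gm6206 (chrX:100358233-100360766).

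The sequences that define the rearrangement are those of the guide RNA targets and of the joints they imply. The targets of the guides CR32 (chrX:100377312-100377334, forward strand) and CR30 (chrX:100622011-100622033, reverse strand) are both intergenic, and are shown with the protospacer-adjacent motif in capitals.
CR32: ctgagctggttcatacaggtAGG
CR30: actggttcagccactcaccgAGG
Cas9 cleavage at these targets separates base 100377328 from the next at the left breakpoint and base 100622016 from the next at the right, which leaves 244688 bp between the cuts. Sequence around each breakpoint is shown next on the forward strand of mm9 as it stands in the reference, at chrX:100377289-100377368 and chrX:100621977-100622056, followed by the left and right junctions predicted for 245kb-INV by joining mm9 at the cuts. Capitals mark bases that lie inside the inverted interval, and the left junction is where the upstream flank meets its new neighbor. The junctions are built from the reference, and the clones' own junction sequences are not shown.
Reference left breakpoint: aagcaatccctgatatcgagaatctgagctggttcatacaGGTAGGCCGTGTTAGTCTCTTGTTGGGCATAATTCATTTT
Reference right breakpoint: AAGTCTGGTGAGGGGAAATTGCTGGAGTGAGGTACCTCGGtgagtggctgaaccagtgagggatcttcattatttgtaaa
Predicted left junction: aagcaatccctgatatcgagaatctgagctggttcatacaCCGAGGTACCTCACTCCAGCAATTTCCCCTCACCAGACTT
Predicted right junction: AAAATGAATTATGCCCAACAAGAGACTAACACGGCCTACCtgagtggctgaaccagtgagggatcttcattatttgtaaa

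A 5C primer anneals at an end of its fragment, so the restriction sites next to the breakpoints decide which side of a cut a count reports on. HindIII sites bounded all 511 FOR and all 528 REV fragments at both ends in mm9. The right ends of the fragments nearest to both breakpoints are given here on the forward strand with the HindIII site in capitals. FOR486 (ending at chrX:100373154-100373189), REV487 (chrX:100374868-100374903) and FOR488 (chrX:100378273-100378308) are the last flank fragments, and REV489 (chrX:100378615-100378650) is the first of the interval.
FOR486: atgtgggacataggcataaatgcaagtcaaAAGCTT
REV487: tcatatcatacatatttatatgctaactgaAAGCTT
FOR488: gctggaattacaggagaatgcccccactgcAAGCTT
REV489: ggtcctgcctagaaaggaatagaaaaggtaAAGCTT
At the other end of the interval, REV568 (chrX:100613186-100613221), FOR569 (chrX:100615672-100615707) and REV572 (chrX:100618940-100618975) become the closest partners of the flank after inversion, and FOR573 (chrX:100623238-100623273) spans the right breakpoint.
REV568: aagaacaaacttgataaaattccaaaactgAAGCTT
FOR569: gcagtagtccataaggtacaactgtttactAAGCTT
REV572: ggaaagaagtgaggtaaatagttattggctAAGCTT
FOR573: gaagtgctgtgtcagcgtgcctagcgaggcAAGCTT

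FOR488 (chrX:100374901-100378305) belongs to the flank by its midpoint, but the left cut runs through it, with 2428 bp to the left of the cut and 977 bp to the right. Its counts in 245kb-INV followed its right end. With REV489, just inside the interval, FOR488 was counted at 221 and 207 CPM, the count scaled to 1000000 X-chromosomal counts, in 245kb-INV, 191 and 106 in Linx-51kb-INV, 162 and 150 in Chic1-4kbD, and 189 and 449 in Chic1-14kbD. With REV487, its left neighbor in the flank, the level was 5.59 and 3.52 CPM in 245kb-INV and between 95.9 and 148 in the other 6 libraries. The right end of FOR488 and REV489 both lie inside the inverted interval. The level of this pair in 245kb-INV is thus contact within the interval and not contact held across the old breakpoint, and contact of FOR488 with REV487 in the flank was low. Counts of FOR573 (chrX:100618973-100623270), which has 3044 bp to the left of the right cut and 1254 bp to its right, also followed its right end. Its level with REV489, which the inversion places beside its right end, was 140 and 137 CPM in 245kb-INV and at most 6.13 CPM in any other library. With REV568, to its left in the reference, FOR573 was at 4.74 and 0 CPM in 245kb-INV, where 0 counts allow up to 0.147 CPM, and at 50.1 to 130 CPM elsewhere. Fragment FOR552, of which only the left end lies in the 14 kb deletion, kept 1873 and 1729 CPM over all its partners in Chic1-14kbD, against 20.7 and 17.0 CPM for REV548, which lies in the deletion entirely. These 2 spanning fragments take part in 36 member pairs, and values are therefore given with them and without them where they differ. The alternative positions that follow from these counts were chosen after the counts had been seen.

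After 2 interval primers with extreme totals and 4 fragments in the Chic1 deletion had been left out, 294 member pairs were kept, of which 258 contained no spanning fragment. The libraries held 1614282 to 21046109 counts in all, and the shallowest by far was the second library of Chic1-14kbD. Member pairs held 65055 and 80240 counts in 245kb-INV, 37857 and 41370 in Linx-51kb-INV, 30729 and 25193 in Chic1-4kbD, and 67947 and 5436 in Chic1-14kbD, or 0.300% to 0.395% of each library's X-chromosomal count. Between 9 and 89 of the 294 pairs had no count in a library. Reads carried no molecular identifiers, so floors and intervals from counts cover counting error only.

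The inversion redistributed the contacts of the flank from the Linx side of the interval to the Tsx side. Partners right of the interval's center, which the inversion brings near, took 58.2% and 51.3% of the flank's counts with the interval in 245kb-INV. They took 17.1% and 13.9% in Linx-51kb-INV, 14.6% and 15.4% in Chic1-4kbD, and 14.3% and 9.99% in Chic1-14kbD. The groups did not overlap, and the 95% Wilson interval of the shallowest library ran from 9.22% to 10.8%. The first 25 kb of the interval, at the left end of Linx in the reference, fell from 55.2% to 68.1% of the flank's counts in the other alleles to 20.2% and 25.9% in 245kb-INV.

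The interval was divided into 10 partner tiles of 25 kb, numbered from the left breakpoint of the reference. Tile 10 ends with the interval and is shorter (chrX:100603306-100623270). Tiles 1 to 6 overlap 4930519F16Rik, tile 6 holds Cdx4, tiles 7 to 9 hold Chic1, and tile 10 holds Tsx. In tile 1, with 50 kept pairs, the mean level was 15.9 and 20.3 CPM per primer pair in 245kb-INV, 38.5 and 35.7 in Linx-51kb-INV, 35.3 and 37.4 in Chic1-4kbD, and 36.2 and 46.6 in Chic1-14kbD. In tile 2, with 24 pairs, it was 7.10 and 6.39 CPM per pair in 245kb-INV, 13.8 and 11.2 in Linx-51kb-INV, 13.8 and 15.5 in Chic1-4kbD, and 17.2 and 11.9 in Chic1-14kbD. Both tiles were lower in each inversion clone than in any other library. At the far end the order was the opposite. Tile 9, which holds the end of Chic1, was at 19.1 and 15.3 CPM per pair over 54 pairs in 245kb-INV, 5.09 and 3.65 in Linx-51kb-INV, 3.11 and 4.31 in Chic1-4kbD, and 3.42 and 2.60 in Chic1-14kbD. Tile 10, which holds Tsx, was at 28.8 and 27.7 CPM per pair over 36 pairs in 245kb-INV, 2.58 and 2.15 in Linx-51kb-INV, 3.40 and 3.57 in Chic1-4kbD, and 2.85 and 2.01 in Chic1-14kbD. The lowest inversion clone thus stood well above the highest of the other 6 libraries in both tiles. The share of map features that separate the libraries in this way was not counted, here or for the tiles below.

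The middle of the interval changed less in level. Tile 3 was at 10.4 and 9.14 CPM per pair in 245kb-INV and at 7.82 to 10.3 CPM in the other libraries, and the groups overlapped. Tile 4, in the part of Linx that Linx-51kb-INV inverts, was at 10.2 and 11.6 CPM per pair in 245kb-INV, 7.54 and 8.24 in Linx-51kb-INV, 5.36 and 5.90 in Chic1-4kbD, and 7.48 and 5.46 in Chic1-14kbD. Tile 5 was at 5.30 and 7.80 CPM in 245kb-INV and between 2.87 and 5.07 CPM elsewhere. Tiles 4 and 5 were thus higher in both inversion clones than in every other library, in tile 5 by a small margin (5.30 against 5.07 CPM). Tiles 6, 7 and 8, around Cdx4 and the start of Chic1, held few counts, at 2.92 to 5.56 CPM per pair in 245kb-INV and 2.13 to 4.52 CPM in the other alleles, and the groups overlapped in tiles 6 and 8. In tile 7 the lower inversion clone, at 2.92 CPM, was just above the highest other library, at 2.82 CPM.

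**Figure D1:**
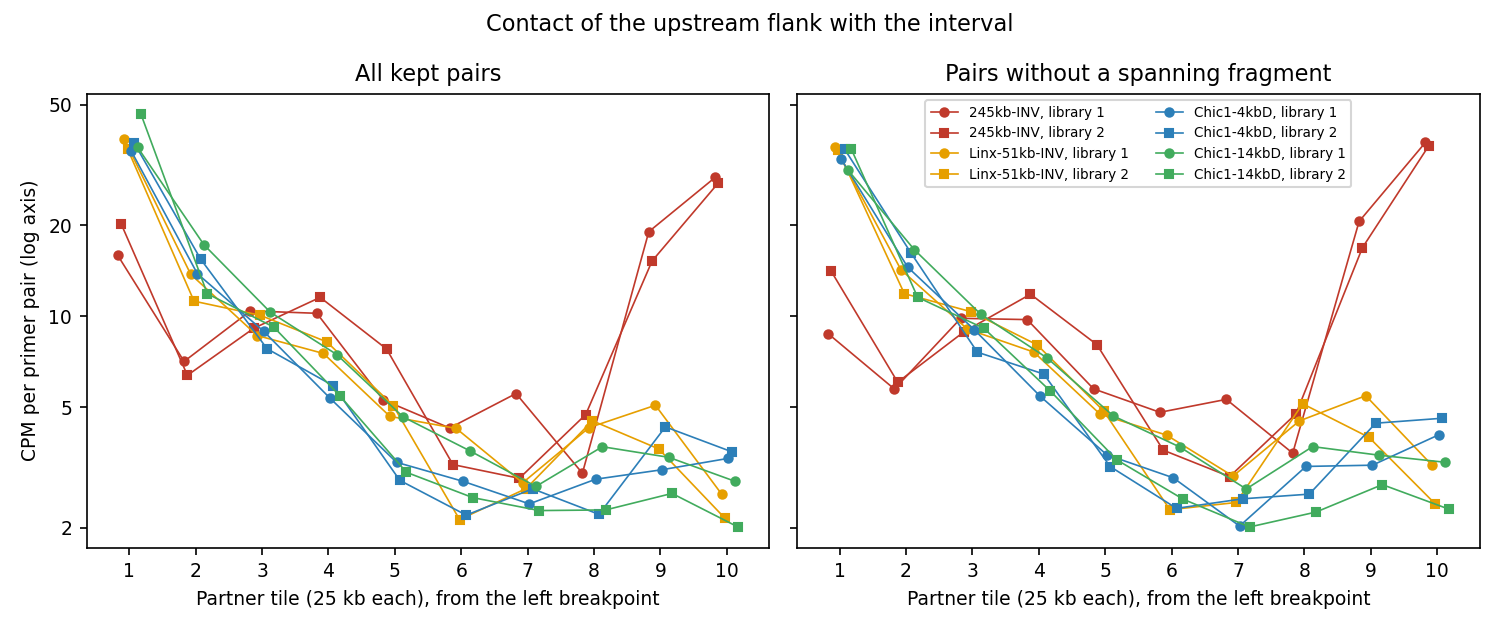
Level of contact between the upstream flank and each partner tile of 25 kb (tile 10 is shorter), in CPM per primer pair on a log axis, for each of the 8 libraries. The left panel has all kept pairs and the right panel leaves out spanning fragments. The 2 clones of 245kb-INV lie below the other libraries in tiles 1 and 2 and above them in tiles 4, 5, 9 and 10.

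Differences between alleles were tested with edgeR's quasi-likelihood F-test, with 245kb-INV compared with the mean of both Chic1 deletions, in a fit over all 8 libraries. A first offset held the count expected at the reference distance, so that a change in distance on the inverted allele counts as a difference. Of the 10 tiles, 4 were higher (tiles 4, 5, 9 and 10) and 2 lower (tiles 1 and 2). Over the whole map, 1.62% of 9662 features of 75 kb by 25 kb were higher and 0.735% lower. The median log2 fold change over all these features was -0.11. Tile 10 was 9.62-fold higher (log2 fold change 3.27, standard error 0.14, adjusted p = 1.02e-08 by edgeR) and tile 9 5.12-fold higher (2.36, standard error 0.16, adjusted p = 1.21e-06 by edgeR). Tile 1 fell by 1.01 in log2 fold change (standard error 0.11, adjusted p = 0.000163 by edgeR) with all kept pairs, by 1.48 without spanning fragments, which left 8.78 and 14.1 CPM per pair in 245kb-INV, and by 2.14 when the highest remaining pair was left out too. Tile 2 fell by 1.05 (standard error 0.16, adjusted p = 0.00265 by edgeR). Tile 4 was 1.89-fold higher (0.92, standard error 0.16, adjusted p = 0.00519 by edgeR). Its adjusted p was 0.0963 against Chic1-4kbD alone and 0.0663 without the second 245kb-INV clone in the same test. Tile 5 was at the threshold (1.00, standard error 0.25, adjusted p = 0.0487 by edgeR) and lost its call in 16 of 25 alternatives.

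Summed over all partners brought near, contact was 5.08-fold higher (log2 fold change 2.35, standard error 0.12, adjusted p = 6.49e-08 by edgeR). Over all partners moved away it fell by 0.56 in log2 fold change (standard error 0.09, adjusted p = 0.00317 by edgeR). The gain outweighed the loss, and the whole interval was higher by 0.36 (standard error 0.08, adjusted p = 0.0208 by edgeR). This small surplus was not past the threshold with library size as the offset (0.29, adjusted p = 0.136 by edgeR) or against Chic1-4kbD alone (0.26, adjusted p = 0.401 by edgeR), or when either 245kb-INV clone or either Chic1-4kbD clone was left out (0.34 to 0.38).

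The second offset held the count expected at the distance along each allele itself. Between the flank and tile 1 the median distance grew from 31.5 kb in the reference to 248 kb in 245kb-INV, and between the flank and tile 10 it shrank from 256 kb to 30.4 kb. Tiles 5 and 6 changed distance the least, from 126 kb to 159 kb and from 159 kb to 125 kb. Of the 10 tiles, 4 (tiles 1, 3, 4 and 5) were higher than in the deletions and 0 lower, against 1.52% and 0.693% of all 9662 features. None of the 10 tiles was lower at an unadjusted p under 0.05 either, with edgeR or with DESeq2. The median over all features was -0.10 on the log2 scale.

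For the new neighbors, the gain came close to what distance predicts, and the call of the remainder depended on how spanning fragments were treated. Observed over expected counts of tile 10, as a log2 ratio, were at -0.62 and -0.72 in 245kb-INV, -0.83 and -1.11 in Linx-51kb-INV, -0.53 and -0.56 in Chic1-4kbD, and -1.21 and -1.43 in Chic1-14kbD. The 3.27 of the first offset shrank to 0.25 (standard error 0.15, adjusted p = 0.495 by edgeR). For tile 9 it shrank from 2.36 to 0.57 (standard error 0.17, adjusted p = 0.108 by edgeR). A part of the gain beyond distance appeared once the spanning fragments, which mostly report on the other side of the cut, were left out. The log2 ratio of tile 10 was then 0.19 and 0.15 in 245kb-INV and between -1.23 and -0.19 in the other 6 libraries, a difference from the deletions of 0.83 (standard error 0.15, adjusted p = 0.0084 by edgeR). Tile 9 was higher by 0.73 (standard error 0.16, adjusted p = 0.0275 by edgeR), and all partners brought near by 0.88 (standard error 0.13, adjusted p = 0.00109 by edgeR), against 0.49 (standard error 0.13, adjusted p = 0.0655) with the spanning fragments. Much of the excess over the deletions thus came from ratios in 245kb-INV near 0, the value that distance predicts, where the same partners at their reference position were below it. With all kept pairs and fragment positions taken at the right end, tile 10 was higher than in the deletions by 0.90 (standard error 0.14, adjusted p = 0.00265 by edgeR). Tile 9 was then higher by 0.72 (standard error 0.17, adjusted p = 0.0331 by edgeR), and all partners brought near by 0.83 (standard error 0.13, adjusted p = 0.00183 by edgeR). An excess over the deletions was not particular to 245kb-INV. In Linx-51kb-INV without spanning fragments, tile 9 was higher by 0.74 (standard error 0.16, adjusted p = 0.015 by edgeR). All partners right of the center were higher by 0.54 (standard error 0.13, adjusted p = 0.0217 by edgeR), and tile 10 was at -0.06 (standard error 0.16, adjusted p = 0.892 by edgeR).

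For the old neighbors, contact fell by less than distance predicts in tile 1 and by about as much in tile 2. Tile 1 had a log2 ratio of 1.57 and 1.98 at its new distance in 245kb-INV, and between -0.50 and -0.05 in the other libraries. The difference from the deletions was 2.10 (standard error 0.11, adjusted p = 1.05e-07 by edgeR), but its size rested on few pairs. It was 1.31 (standard error 0.15, adjusted p = 0.000207 by edgeR) without spanning fragments and 0.66 (standard error 0.10, adjusted p = 8.82e-05) when the highest remaining pair was left out too. With fragment positions taken at the right end, which puts FOR488 inside the inverted interval, it was 0.24 (standard error 0.10, adjusted p = 0.337 by edgeR). Tile 2 differed by 0.40 (standard error 0.15, adjusted p = 0.266 by edgeR) with all kept pairs and by 0.13 without spanning fragments.

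Relative to their own distance, tiles 3, 4 and 5 were higher in 245kb-INV than in the deletions, by edgeR with or without spanning fragments. Tiles 3 and 4 were also above what the inverted distance predicts, whereas tile 5 was near or below it. The log2 ratio of tile 4 was 0.52 and 0.71 in 245kb-INV, 0.03 and 0.19 in Linx-51kb-INV, -0.76 and -0.70 in Chic1-4kbD, and -0.71 and -0.93 in Chic1-14kbD, so that the inversion clones were the highest and both deletions the lowest. The difference was 1.39 (standard error 0.16, adjusted p = 0.000167 by edgeR), and 1.33 without spanning fragments. For tile 3, with log2 ratios of 0.70 and 0.54 in 245kb-INV, it was 1.05 (standard error 0.16, adjusted p = 0.00185 by edgeR). Tile 5 had log2 ratios of -0.53 and 0.04 in 245kb-INV, -0.80 and -0.67 in Linx-51kb-INV, -1.32 and -1.59 in Chic1-4kbD, and -1.24 and -1.61 in Chic1-14kbD. Its difference from the deletions was 1.21 (standard error 0.25, adjusted p = 0.0167 by edgeR), which was not past the threshold in 6 of 23 alternatives, among them without the second 245kb-INV clone (0.90, adjusted p = 0.190). In tile 4, 30 of 30 tested pairs had a fitted value above 0, and none passed the test alone. Over all 281 member pairs tested, 206 were above 0, and over all 110188 tested pairs of the map 55.3% were.

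Tiles 6, 7 and 8 did not differ from the deletions at their new distance, with log2 differences of 0.30, 0.23 and -0.39 (standard errors 0.30 to 0.33). Their contact with the flank was below expectation on these alleles, with log2 ratios of -0.91 to -2.05 in 245kb-INV and -1.05 to -1.79 in both deletions. Tiles 7 and 8, with the start of Chic1, stood 101.7 and 82.8 kb from the flank in 245kb-INV, in median. In tile 8 the sign of the difference turned to 0.31 when fragments in the Chic1 deletion were kept.

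**Figure D2:**
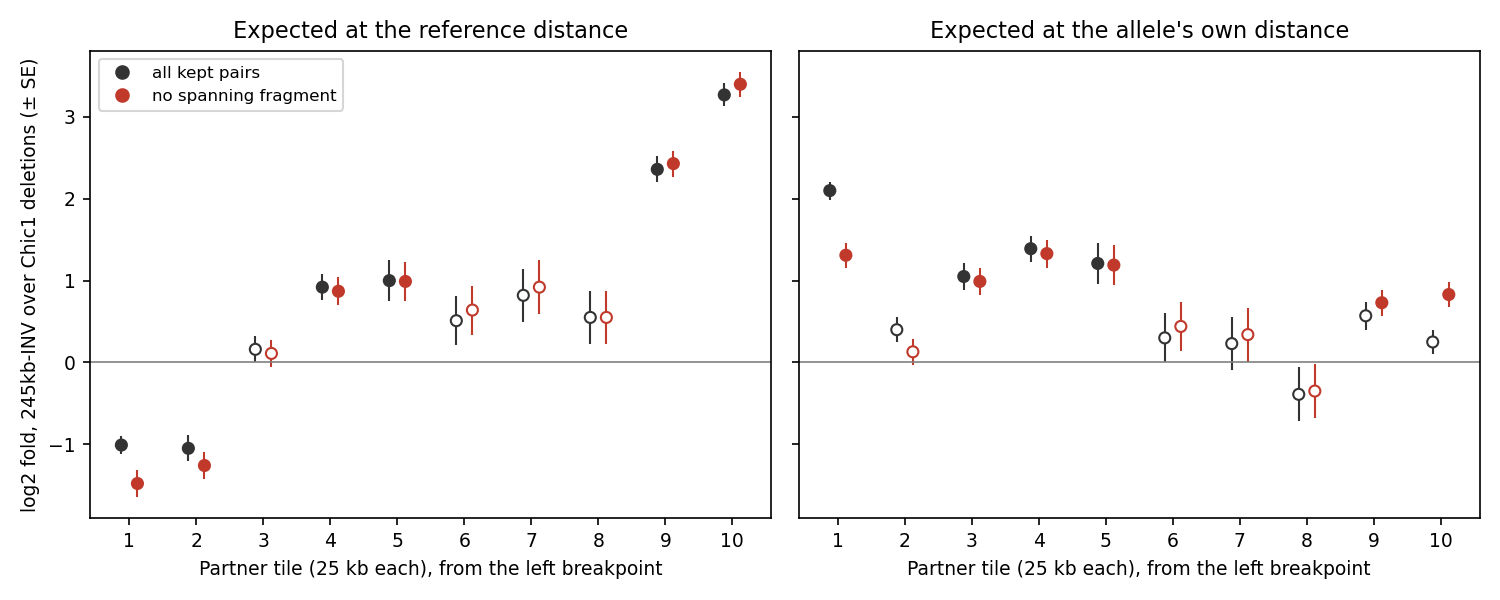
Log2 fold change of 245kb-INV over both Chic1 deletions for each partner tile, with standard errors as bars, relative to the count expected at the reference distance (left) and at the distance along the allele itself (right). Dark points use all kept pairs, red points leave out spanning fragments, and filled points passed the edgeR test. The rise to 3.27 in tile 10 on the left is 0.25 on the right with all kept pairs and 0.83 without spanning fragments.

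Single primer pairs showed where within the tiles the contacts lay. With reference distances, 15 of 281 tested member pairs were higher and 13 lower in 245kb-INV by edgeR, against 0.495% and 0.12% of 110188 tested pairs of the map. Of the higher pairs, 8 lay in tile 10, 6 in tile 9 and 1 in tile 1. All of the lower pairs lay in tile 1. The median log2 fold change of the member pairs was 0.77, and that of all tested pairs 0.21.

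The 3 pairs with the smallest p among the higher ones joined the last flank fragments left of the cut to the fragments of Tsx shown above. FOR486 with REV572, which lie 246 kb apart in the reference and 7.98 kb apart on the inverted allele, was counted at 170 and 117 CPM in 245kb-INV. It was at 0 and 0 CPM in Linx-51kb-INV, where 0 counts allow up to 0.267 and 0.225 CPM, at 2.05 and 8.67 CPM in Chic1-4kbD, and at 0.338 and 6.30 CPM in Chic1-14kbD. By edgeR its log2 fold change stood at 5.23 (standard error 0.50, adjusted p = 6.19e-22), and moved to 4.55 without the first Chic1-14kbD library, 6.78 without the second and 5.87 without the second Chic1-4kbD clone. FOR486 with REV568 was at 138 and 182 CPM in 245kb-INV, 0.535 and 2.10 in Linx-51kb-INV, 11.1 and 13.8 in Chic1-4kbD, and 8.21 and 0 in Chic1-14kbD (log2 fold change 4.41, but 8.67 without the first Chic1-14kbD library, since the second had 0 counts). REV487 with FOR569 was at 106 and 126 CPM in 245kb-INV and at most 10.7 CPM elsewhere (log2 fold change 4.85). With the distance of the inverted allele as expectation, these differences were 1.12 (standard error 0.49), 1.14 (standard error 0.43) and 1.11 (standard error 0.50), with adjusted p-values by edgeR of 0.774, 0.538 and 0.774.

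The 3 lower pairs with the smallest p joined flank fragments to the first fragments of the interval, near Nap1l2. FOR486 with REV489, 5.85 kb apart in the reference and 248 kb apart on the inverted allele, was at 8.87 and 3.42 CPM in 245kb-INV, 189 and 148 in Linx-51kb-INV, 182 and 161 in Chic1-4kbD, and 189 and 416 in Chic1-14kbD. Its log2 fold change stood at -5.02 (standard error 0.34, adjusted p = 1.02e-45 by edgeR), and at -0.46 (standard error 0.27, adjusted p = 0.774 by edgeR) with the inverted distance. FOR486 with REV493 was at 4.19 and 4.30 CPM in 245kb-INV and between 48.0 and 126 CPM elsewhere (log2 fold change -4.41). FOR479 with REV489 was at 12.6 and 1.07 CPM in 245kb-INV and between 61.6 and 109 CPM elsewhere (log2 fold change -3.62). All 3 pairs were lower in both clones than in any other library, which is no separate support, since they were picked by p in the comparison with the deletions. Relative to the inverted distance the differences of the last 2 pairs, -0.31 (standard error 0.37) and -0.70 (standard error 0.39), did not pass the test. The fold of FOR479 with REV489 rested on the clone taken, at -6.28 without the first 245kb-INV clone and -2.73 without the second. That of FOR486 with REV489 was -5.94 without the first.

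**Figure D3:**
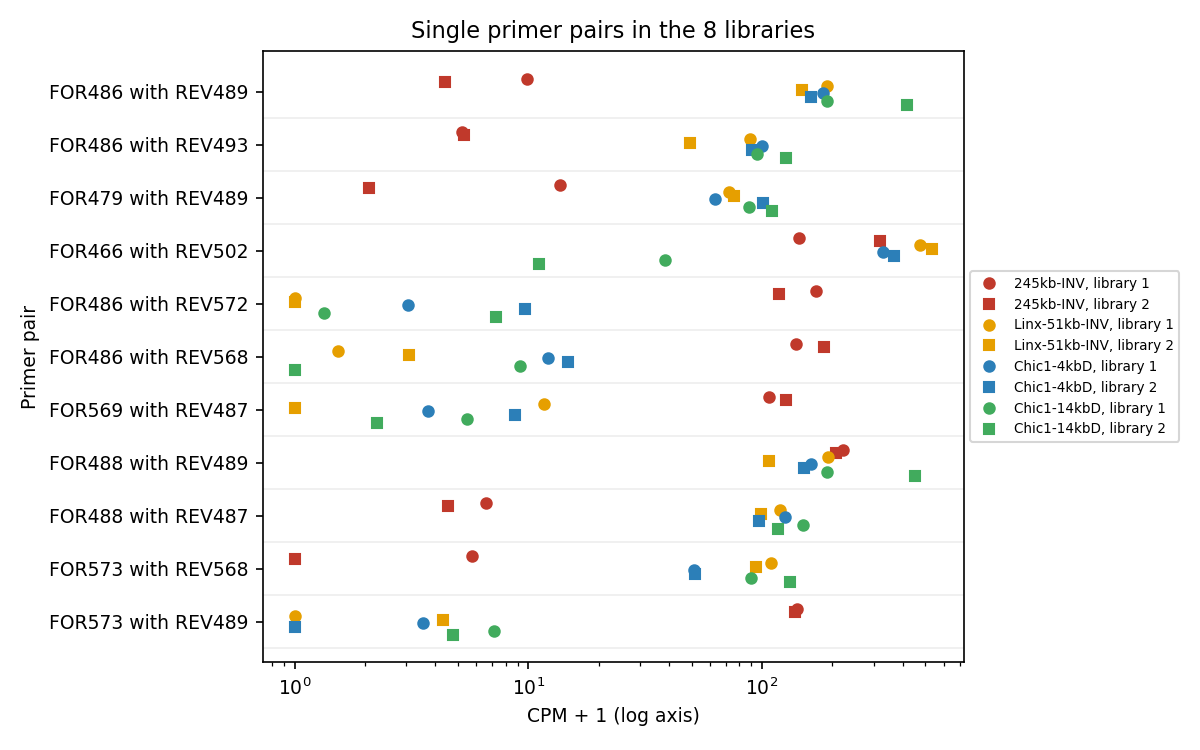
Level of 11 primer pairs named in the text, those of the spanning fragments included, in each of the 8 libraries, in CPM plus 1 on a log axis. The 3 pairs that join the flank to Tsx lie above 100 CPM only in the 2 clones of 245kb-INV, and FOR486 with REV489 lies below 10 CPM only there.

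With the inverted distance as expectation, 8 of 281 member pairs were higher and 0 lower by edgeR, against 0.486% and 0.0953% of all 110188 tested pairs. At an unadjusted p under 0.05 edgeR had 37 higher and 8 lower member pairs, and DESeq2 called 12 higher and 7 lower at the adjusted threshold. Of the 8 higher pairs, 4 contained no spanning fragment. FOR488 with REV489 (log2 difference 5.35, standard error 0.24), whose levels are given above, and FOR488 with REV493 (4.80, standard error 0.35) had 2 of the 3 smallest p. Both join the fragment that the left cut runs through to the start of the interval. The second of these was at -0.18 with the position of FOR488 at its right end, and the first at 0.08. By fragment midpoints, FOR488 with REV489 is also the measured pair closest across the old left breakpoint. The measured pair closest across the new junction by midpoints, FOR488 with REV572, had 18 and 0 counts in 245kb-INV, 0 and 50 in Linx-51kb-INV, 17 and 33 in Chic1-4kbD, and 88 and 1 in Chic1-14kbD. It stayed at this low level on the inverted allele (log2 fold change -2.28, standard error 3.27, adjusted p = 0.987 by edgeR, with a range of -7.97 to -1.29 when 1 library was left out). Counts of FOR488 followed its right end, which the inversion carries away from the new junction, so this pair does not report on contact across it. FOR486 and REV487, which lie left of the cut, gained contact with the same part of Tsx.

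The remaining pair among those 3 lay inside the flank and inside Linx. FOR466 (chrX:100330549-100332221) with REV502 (chrX:100394772-100398344), 65.2 kb apart in the reference and 271 kb apart after inversion, was at 143 and 319 CPM in 245kb-INV, 471 and 532 in Linx-51kb-INV, 328 and 368 in Chic1-4kbD, and 37.3 and 10.1 in Chic1-14kbD. At over 4 times the distance, both clones of 245kb-INV were thus below every library of Linx-51kb-INV and Chic1-4kbD and above both of Chic1-14kbD. The deletion alleles, neither of which edits these fragments, differed widely from each other. The log2 difference beyond distance was 2.93 (standard error 0.21, adjusted p = 2.32e-42 by edgeR), but part of it came from the low level in Chic1-14kbD, since it was 0.82 (adjusted p = 0.431 by edgeR) against Chic1-4kbD alone. It was 2.21 without the second 245kb-INV clone. This pair is the one that lowers the difference of tile 1 from 1.31 to 0.66 when it is left out.

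Flank fragments differed widely among themselves. Relative to the inverted distance and over all partners, FOR466 had the highest log2 ratio in 245kb-INV (0.81 and 1.35), where it was also high in Linx-51kb-INV (1.71 and 1.82) and Chic1-4kbD (1.26 and 1.39) but not in Chic1-14kbD (-0.16 and -0.51). REV484 (chrX:100368929-100372053), the fragment next to FOR486, had the lowest ratio (-2.01 and -2.08), and was about as low in the other alleles (-1.86 to -2.69). With partners brought near, FOR486 rose in level to 33.8 and 30.9 CPM per pair from at most 4.83 CPM elsewhere, and REV487 to 34.0 and 31.0 CPM from at most 8.60 CPM. FOR488 stayed at 3.91 and 1.81 CPM per pair, against 1.38 to 3.05 CPM in the other alleles. REV457, the outermost fragment of the flank, was at 4.73 and 3.90 CPM per pair and at 0.540 to 2.75 CPM elsewhere. All flank fragments other than FOR488 were thus higher in both inversion clones than in any other library with these partners. How often fragments or tiles elsewhere on the map separate the libraries in this way was not counted.

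**Figure D4:**
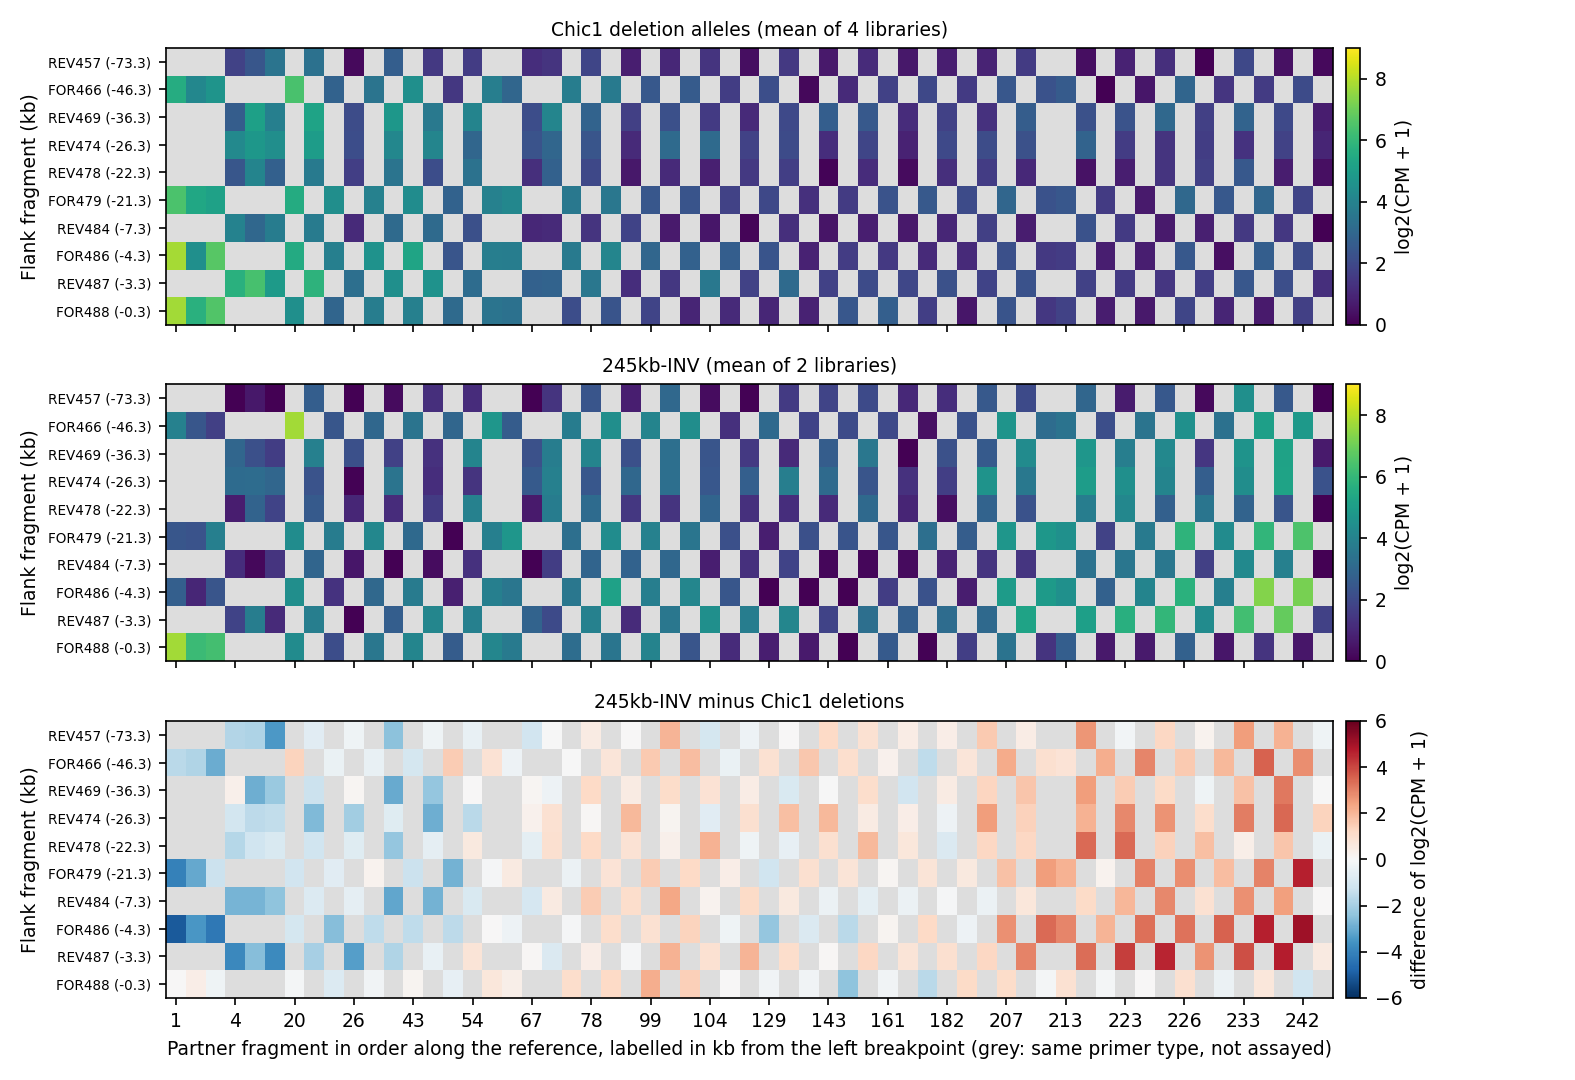
Contact of each flank fragment (rows, with distance from the left breakpoint in kb) with each partner fragment (columns, in reference order) as mean log2(CPM + 1), in the Chic1 deletions (top) and in 245kb-INV (middle), and the difference between them (bottom). Grey squares pair 2 primers of the same type or were left out. The strongest contacts move from the left end of the interval in the deletions to its right end in 245kb-INV, except in the row of FOR488 and at FOR466 with REV502.

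Partner fragments of tiles 9 and 10 were higher near the new junction, though not in strict order. FOR partners were averaged over 6 flank fragments and REV partners over 3 others, so levels are not compared between types. Among FOR partners in 245kb-INV, FOR552 was at 7.37 and 10.3 CPM per pair, FOR558 at 22.0 and 19.2, and FOR567 at 28.8 and 30.6. FOR569, closer still, was at 35.96 and 36.04, but FOR565, between FOR558 and FOR567, only at 9.64 and 6.44. Among REV partners, REV553 was at 28.9 and 25.2 CPM per pair and REV572, nearest the junction, at 99.5 and 74.0. REV566, between these, was lower than REV553, at 12.4 and 18.1, and REV559 lower still. FOR552, FOR558, FOR567 and REV572 were at 1.87 to 4.80, 1.47 to 5.47, 2.83 to 6.34 and 1.00 to 5.25 CPM per pair in the other libraries. In Linx, FOR521 (chrX:100468777-100475371) of tile 4 was at 4.21 and 4.22 CPM per pair in 245kb-INV and 0.282 to 2.94 CPM elsewhere. REV525 (chrX:100477397-100479327), the first fragment of tile 5, was at 14.5 and 17.3 CPM per pair in 245kb-INV and 2.10 to 11.2 CPM elsewhere. These fragments were chosen after their values had been seen.

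Contacts at equal distance along the alleles place different partners side by side. The log2 differences by distance are between means of log2(CPM per pair + 1), which makes them smaller where levels are low. At 0 to 25 kb from the flank, without spanning fragments, the level with Tsx and its surroundings in 245kb-INV was 66.9 and 63.4 CPM per pair. The level with the left end of Linx at the same distance in the deletions was 49.5 and 51.7 CPM per pair in Chic1-4kbD and 59.9 and 81.3 in Chic1-14kbD. The log2 difference of 0.13 lay inside the range of the deletions. With the spanning fragments, which add the low pairs of FOR488, the difference was -0.76. From 25 to 75 kb the ranges overlapped as well. From 75 to 125 kb the inverted allele was lower. At 100 to 125 kb, where its partners are around Cdx4 and Chic1, it had 3.33 and 4.08 CPM per pair, and the deletions, with partners in Linx, had 5.78, 5.90, 7.06 and 4.50 CPM (log2 difference -0.52).

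Beyond 125 kb the inverted allele was higher in every step up to 300 kb. From 150 kb on its partners lay mainly in tiles 1 to 5, along Linx, and those of the deletions in tiles 6 to 10, whereas at 125 to 150 kb both had partners in tiles 4 to 6. At 175 to 200 kb it had 10.3 and 8.37 CPM per pair, and the deletions 2.15, 2.56, 2.89 and 2.18 CPM. The difference in log2(CPM + 1) was 1.58, less than that of the plain levels. At 225 to 250 kb it had 7.16 and 7.77 CPM per pair against 3.42 to 4.27 CPM, a difference of 0.86. With the spanning fragments this last difference was 2.09. The step from 250 to 275 kb, at 12.9 and 24.5 CPM per pair against 2.18 to 4.98 CPM, contains FOR466 with REV502. The median difference over the 12 steps was 0.93 with all kept pairs and 0.75 without spanning fragments. These values compare different fragments, whose primers differ in efficiency, and were not tested.

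**Figure D5:**
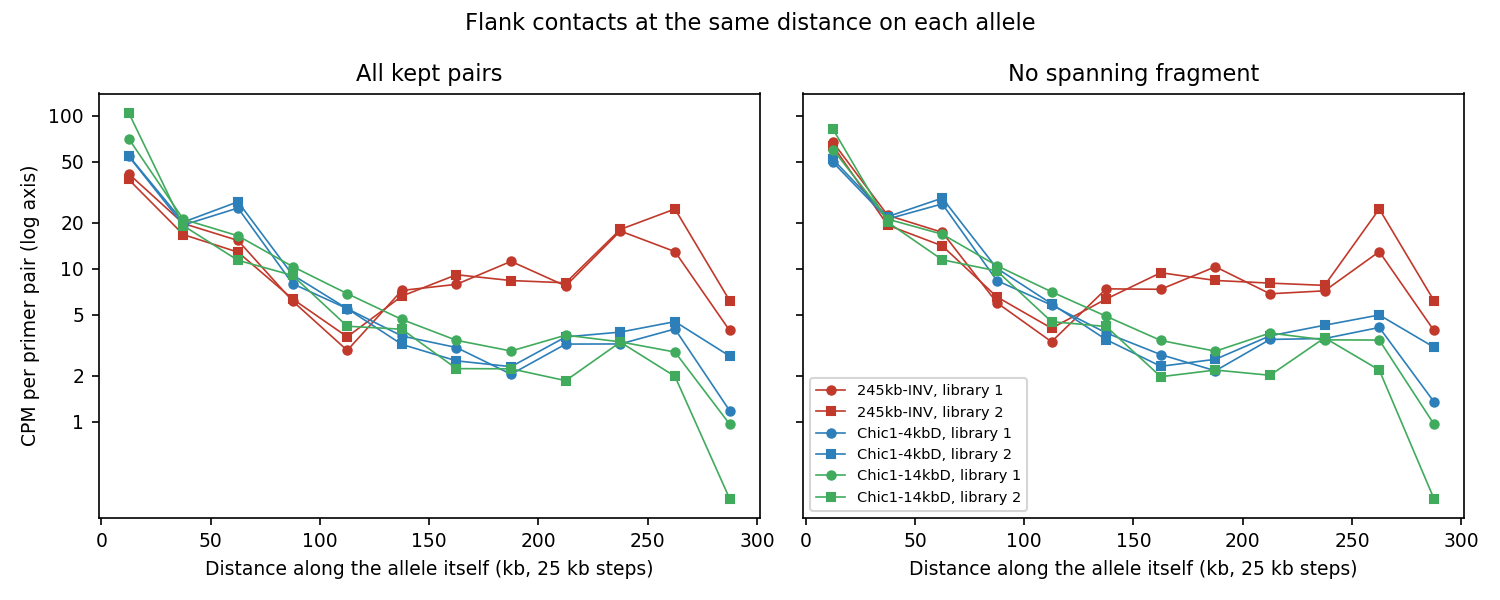
Level of contact of the flank with its partners by distance along the allele itself in steps of 25 kb, in CPM per primer pair on a log axis, for 245kb-INV and the Chic1 deletions, with all kept pairs (left) and without spanning fragments (right). The inverted allele lies below the deletions from 75 to 125 kb and above them beyond 125 kb, and in the left panel also below them at 0 to 25 kb.

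A gain beyond distance was not detected at the other breakpoint. The 678 kept pairs that join a flank of the same length directly right of the interval to the interval had log2 ratios of 0.28 and 0.45 in 245kb-INV and 0.31 to 0.55 in the other libraries, a difference from the deletions of -0.10 (standard error 0.07, adjusted p = 0.587 by edgeR). The 6 kept pairs between the upstream flank and the unedited sequence before it differed by 0.08 (standard error 0.18, adjusted p = 0.904). The difference between upstream and right flank was -0.37 and -0.56 in 245kb-INV, -0.99 and -0.81 in Chic1-4kbD, and -0.99 and -1.06 in Chic1-14kbD on the log2 scale. Relative to the deletions, the 245kb-INV clones were thus shifted toward the upstream flank by 0.50. A two-sided exact permutation test over these 6 libraries gave p = 0.0667, the smallest value its 15 assignments allow. In Linx-51kb-INV, whose flanks are intact, the same difference was -0.52 and -0.57. These values overlap those of 245kb-INV, so the shift from the deletions was not particular to 245kb-INV. The flanks also differ in content, since the right flank holds Tsix and Xist.

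Linx-51kb-INV, compared with the same deletion libraries and relative to its own distances, was higher in 2 of 10 tiles by edgeR and lower in 0, against 3.57% and 2.04% of all 9662 features. None was lower at an unadjusted p under 0.05, by edgeR or DESeq2. The tiles were tile 4 (log2 difference 0.89, standard error 0.16, adjusted p = 0.0038 by edgeR), which lies in the inverted part of Linx, and tile 9 (0.68, standard error 0.17, adjusted p = 0.0272). For tile 4 the call was lost without the second Linx-51kb-INV clone (0.80, adjusted p = 0.0609). For tile 9 it was lost without the first Linx-51kb-INV clone (0.42, adjusted p = 0.309) and in 3 other omissions of 1 library. The whole interval was higher by 0.29 (standard error 0.08, adjusted p = 0.0366 by edgeR), a call lost when any of the 6 compared libraries was left out (0.27 to 0.31). Tile 10 was at -0.04. Both inversions share the deletion libraries as controls, and the difference between them was not tested.

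Between the deletion alleles 1 of 10 tiles was called, and 3 of the 4 omissions of a deletion library ended that call. Relative to Chic1-4kbD, tile 10 in Chic1-14kbD fell by 0.76 in log2 fold change (standard error 0.18, adjusted p = 0.0149 by edgeR), and it was the only tile of 10 called lower, with 0 higher by edgeR or DESeq2 also at an unadjusted p under 0.05. Among all 9662 features 5.28% were lower and 3.15% higher. No tile was called without either Chic1-4kbD clone or without the second Chic1-14kbD library. Tile 9 was at -0.56 (standard error 0.20, adjusted p = 0.0958 by edgeR) and the whole interval at -0.21 (standard error 0.09, adjusted p = 0.159). The difference of the inversion in tile 10 beyond distance was 0.63 (adjusted p = 0.0359 by edgeR) against Chic1-14kbD alone and -0.13 (adjusted p = 0.927) against Chic1-4kbD alone with all kept pairs.

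The interval held 5 matches to the core CTCF consensus, searched on both strands of mm9, and the flank held 0. They are shown with their surroundings, in the direction of the motif and with the matched letters in capitals, because the inversion turns them relative to the flank. The matches in tile 1 (chrX:100388597-100388608), tile 4 (chrX:100455393-100455404 and chrX:100469880-100469891) and tile 9 (chrX:100602053-100602064) are on the forward strand of the reference, and that in tile 3 (chrX:100434563-100434574) is on the reverse strand.
Tile 1 match: ggttggCCACCAGAGGGCactctt
Tile 3 match: gagatgCCAGCAGAGGGCatcaga
Tile 4 match, first: aggtgaCCACTAGATGGCggtata
Tile 4 match, second: ttcaggCCACCAGGTGGCagtttt
Tile 9 match: catcacCCACCAGGTGGCtcatag
Of 182 windows of 25 kb over the map, 24 (13.2%) held such a match, against 4 of the 10 tiles, and of 60 windows of the flank's length 20 (33.3%) did. Of the 4 tiles called higher beyond distance, tiles 1, 3 and 4 hold a match and tile 5 does not. Of the tiles called without spanning fragments but not with all kept pairs at fragment midpoints, tile 9 holds a match and tile 10 does not. No match lay within Chic1, where the paper places a cluster of CTCF sites, so the search misses known sites. A relation between matches and calls was not tested. A match is a string of letters only, and binding of CTCF was not measured in these libraries.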

How the data were processed

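5C libraries of 4 alleles with 2 libraries each were analysed. Per the labels and the methods of the study, the authors aligned reads with bowtie2 to all pairs of forward and reverse primers in mm9 (NCBIM37), and deposited raw counts per primer pair, before inefficient primers were discarded, replicates pooled or maps binned. Groups are the labelled genotypes. The labels give no replicate numbers, and libraries were numbered in order. The members, lists and tests were chosen with earlier results of these data known.

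FOR and REV primers were each filtered on their total over the libraries, with limits at 0.1 and 10 times the median, which left 503 of 511 FOR and 514 of 528 REV primers. The expected count came from the distance decay of each library in 40 bins. Positions of the Linx-51kb and Chic1-4kb intervals were read by eye from a drawing. CPM are relative to the X-chromosomal count of a library. Summed counts of map features of 75 kb by 25 kb with a mean of at least 50, and of single pairs with a mean of at least 10, entered edgeR 4.0.16 (glmQLFit, then glmQLFTest, R 4.3.3). The offset was the log expected count, and each fit held all 8 libraries. The standard error is the log2 fold change over the square root of F. Benjamini-Hochberg adjustment was over all 9662 features or 110188 pairs, at 0.05. DESeq2 1.42.0 was an alternative, and the steps were tested on simulated counts. Python 3.11.15 was used for summaries. All tiles are named, and of single pairs the 3 with the smallest p per direction among those past the threshold, the closest pairs across the old breakpoint and the new junction, and the flank fragments with the highest and lowest ratio. Gene positions are from GENCODE in mm9. Alternatives were other offsets, primer filters, bins, count minimums, comparison alleles and positions, and leaving out pairs or each library. The shallowest library had 1614282 counts and the least precise values.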

Additional observations from a re-analysis of the deposited data

How the results depend on the processing

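No paired analysis was possible because the labels give no replicate numbers. Values are log2 differences of 245kb-INV from the deletions unless named, by edgeR except where DESeq2 is named. With reference distances, the gain of partners brought near and the loss of those moved away kept direction and call in every alternative run. The rise of the whole interval (0.36) lost its call with library size (0.29), TMM (0.20), primer efficiency (0.30), Chic1-4kbD alone (0.26) and Linx-51kb-INV added to the controls (0.27), and ranged from 0.34 to 0.38 over omissions of 1 library. Beyond distance, the whole interval (0.40) lost it against Chic1-4kbD alone (0.29) and with Linx-51kb-INV added (0.30), and also without the first 245kb-INV clone (0.39), the second (0.40) or the first Chic1-4kbD clone (0.37), with a range of 0.37 to 0.42 over omissions of 1 library. Partners brought near (0.49, not called) were called with primer efficiency (0.84), DESeq2 (0.49), the compared alleles fitted alone (0.49), without spanning fragments (0.88), without the highest pairs (0.42) or both (0.82), against Chic1-14kbD alone (0.71), at right fragment ends (0.83) and with deletion fragments kept (0.50), and ranged from 0.38 to 0.59 over omissions. The right flank (-0.10) was called without spanning fragments and highest pairs (-0.19). The upstream control (0.08) was -0.02 without highest pairs, with or without spanning fragments, and -0.00 against Chic1-14kbD alone, and ranged from -0.16 to 0.28 over omissions. The rise of Linx-51kb-INV (0.29) was 0.14 without highest pairs and 0.27 to 0.31 over omissions. Chic1-14kbD minus Chic1-4kbD (-0.21) was called without spanning fragments (-0.37). The median at equal distance, a difference in log2(CPM + 1) and not a fitted value, went from 0.93 to 0.75 without spanning fragments. The cause of these changes was not tested.

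Called tiles numbered 5 in place of 2 for Linx-51kb-INV with primer efficiency, and 1 to 2 over omissions. Between the deletions they numbered 2 in place of 1 with primer efficiency, 0 with the compared alleles alone, and 0 to 1 over omissions. Higher pairs at the reference distance fell from 15 to 7 and lower ones from 13 to 6 against Chic1-4kbD alone, and lower ones ranged from 7 to 16 over omissions. Pairs higher beyond distance went from 8 to 4 without spanning fragments or against Chic1-4kbD alone, to 2 at right ends, and to 6 to 13 over omissions. Pairs lower beyond distance went from 0 to 7 with DESeq2, to 1 with the compared alleles alone or against Chic1-14kbD alone, and to 0 to 8 over omissions.

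Signs turned in these results, with values not past the threshold. Tile 3 at the reference distance was -0.10 with primer efficiency. Beyond distance, tile 2 was -0.03 at right ends, tile 7 -0.29 without the first 245kb-INV clone and up to 0.62 over omissions, tile 8 0.31 with deletion fragments kept, tile 10 -0.13 against Chic1-4kbD alone, and FOR488 with REV493 -0.18 at right ends. For Linx-51kb-INV, tile 1 was -0.09 without highest pairs, tile 2 -0.05 without its first clone (up to 0.18 over omissions) and -0.01 without the second Chic1-14kbD library, tile 3 -0.09 with primer efficiency, and tile 6 -0.07 without its first clone. Its tile 10 was 0.05 with primer efficiency, 0.04 without highest pairs, with or without spanning fragments, 0.09 without its second clone and 0.02 without the first Chic1-14kbD library.

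With 9 to 89 of 294 pairs at 0 counts, single pairs at distance and tiles 6 to 8 are the least precise, and 2 libraries per allele limit every test.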
